A study of Mus musculus with 18 samples.

Results

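The carbonic anhydrase genes Car2, Car3, Car5a, Car8 and Car14 of mouse hepatocytes are described here across 6 treatment groups. They are 5 of the 16 carbonic anhydrase genes (Car1 to Car15, with Car5a and Car5b) in the annotation of the mouse build NCBIM37, and 5 of 37991 genes counted. They were chosen by gene symbol, with the lower level of Car3 than in PBS in every treatment already in view. Values of a treatment against PBS are therefore given as a description, without a test of the members. The members were tested only between treated groups, in comparisons without the PBS group. Genes of related lists were also tested against PBS. All groups were fitted together, so the PBS libraries enter the filter, the scaling and the estimate of spread of every test.

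Total RNA of plateable cryopreserved hepatocytes from male CD-1 mice was sequenced in 18 libraries, 3 in each of 6 groups. The PBS group received buffer alone. The siRNA group received an siRNA against Ttr, the transcript of the thyroxine and retinol carrier transthyretin. Another pair of groups received a REVERSIR compound alone, with either a scrambled sequence (scrambled REVERSIR) or the sequence directed to the Ttr siRNA (TTR REVERSIR). The last pair received the siRNA with one of these compounds (siRNA + scrambled REVERSIR and siRNA + TTR REVERSIR). REVERSIR compounds are short synthetic oligonucleotides that pair with the guide strand of an siRNA and so undo silencing. The labels name no dose or time, and do not tell whether the 3 libraries of each group stem from different cultures or animals. P-values thus measure only the spread between libraries, which may be technical.

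Carbonic anhydrases interconvert carbon dioxide and water with bicarbonate and a proton, at a zinc ion held in the active site. In the liver they supply bicarbonate to urea synthesis, gluconeogenesis and lipogenesis and move acid equivalents across membranes. Car3 is a cytosolic form of low hydratase activity that is abundant in adipose tissue, skeletal muscle and liver, where it is also known as a target of protein S-glutathionylation. Car2 is the widespread cytosolic form of high activity. Car5a is the liver form of the mitochondrial matrix, Car14 is a membrane form with its active site outside the cell, and Car8 has lost catalytic activity and binds the inositol trisphosphate receptor Itpr1.

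Car3 and Car2 are neighbours on chromosome 3 of NCBIM37, on the plus strand. Car3 (ENSMUSG00000027559) spans chr3:14863538-14872351 and Car2 (ENSMUSG00000027562) spans chr3:14886426-14900769, with 14.1 kb between them. Car13 and Car1 lie on the other side of Car3, and the group of 4 genes covers 259.0 kb. The 150 bases just before each annotated start were read from the genome of that build and are printed 5′ to 3′ on the plus strand, because these adjoining genes had unlike levels and unlike patterns across the libraries. Capitals mark TATAAA, the core of the TATA box.
Car3, chr3:14863388-14863537: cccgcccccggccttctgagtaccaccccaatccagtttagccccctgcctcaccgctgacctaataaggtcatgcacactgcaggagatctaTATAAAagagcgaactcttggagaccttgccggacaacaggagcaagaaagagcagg
Car2, chr3:14886276-14886425: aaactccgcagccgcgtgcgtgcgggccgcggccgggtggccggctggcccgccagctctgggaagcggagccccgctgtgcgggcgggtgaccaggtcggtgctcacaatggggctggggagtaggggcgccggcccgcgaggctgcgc
TATAAA was searched on both strands. In the Car3 window it begins 57 bases before the annotated start, on the strand of the gene, and the Car2 window holds it on neither strand. Of 21850 windows of this length before protein-coding genes, 1731 (7.9%) hold it on either strand. The Car3 window has 5 CpG dinucleotides and a GC content of 55.3%, against 20 CpG and 78.0% for Car2, with a median of 6 CpG over all windows. These matches describe the letters only.

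Levels were compared between genes per length, as reads per kilobase of exon per 1000000 counts (RPKM) over the 18 libraries. Car3 was the most abundant carbonic anhydrase, at 83.2 ± 16 RPKM (SD, n = 18), and stood at position 596 of the 11153 genes that passed the filter on low counts. Car2 followed at 12.2 ± 1.56 RPKM, and its highest library (15.6 RPKM) lay below the lowest library of Car3 (66.6 RPKM). Car8 came next at 4.47 ± 0.587 RPKM, between 3.40 and 5.28, below every Car2 library. Further down, neighbours overlapped in range. Car13, a cytosolic form that is not among the 5, was at 2.42 ± 0.662 RPKM, and Car14 at 1.45 ± 0.43 RPKM. Car5a was at 0.382 ± 0.277 RPKM. Of the 16 family genes 6 passed the filter, and 4 of the 5 members, all but Car5a. Car4 and Car10 had no count in any library.

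**Figure D1:**
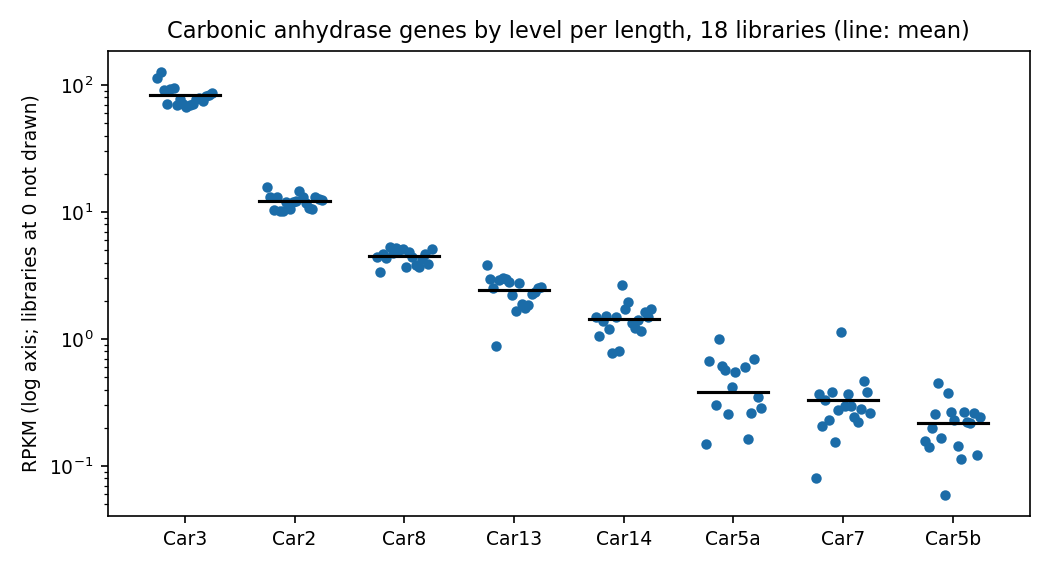
Level per length (RPKM, log axis) of the 8 most abundant carbonic anhydrase genes; each point is a library, the line is the mean over 18 libraries, and libraries at 0 are not drawn. Car3 stands above Car2 in every library, Car2 above Car8, and the genes from Car8 downwards overlap.

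The plot of levels by gene shows the order within the family, in which Car3 and Car2 stand clear of the others. Per library these levels rest on 190 to 1209 counts of Car3, 38 to 226 counts of Car2, 35 to 171 of Car8 and 6 to 40 of Car14, in libraries of 1755819 to 10145265 counts in all. Car5a had 57 counts in all 18 libraries together. Precision falls in that order.

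The cells carried the markers of hepatocytes. All 8 hepatocyte markers passed the filter, with a summed level of 47140 to 60790 counts per 1000000 (CPM). The sum was 50930 to 60790 CPM in PBS and 47140 to 54700 CPM in treated libraries. Alb, which encodes albumin, was between 36800 and 49600 CPM. Car3 is also abundant in adipocytes and skeletal muscle, and Car1 and Car2 in red blood cells, so markers of those cells were read as well. Of 5 adipocyte markers Adipoq and Lep were at 0 in every library. Fabp4 and Cidec passed the filter, at up to 32.8 and 22 CPM. The adipocyte list summed to 43.6 to 45.1 CPM in PBS and 36.0 to 49.9 CPM in treated libraries. Of 5 skeletal muscle markers Ckm, Mb and Myh4 were at 0, while Acta1 passed the filter at 21.9 to 37 CPM. Of the 8 erythroid markers Hbb-b2, Hba-a2, Slc4a1 and Epb4.2 were at 0, and 1 passed the filter. The muscle list summed to 29.3 to 32.3 CPM in PBS and the erythroid list to 17.1 to 20.0 CPM, both inside their range over treated libraries. Among markers of other liver cells, Cd68 of macrophages was highest at 268 to 371 CPM, then Stab2 of liver endothelium at 35.2 to 51.2 CPM. Each stood alone in its list. The other macrophage markers reached at most 6.45 CPM (Clec4f), and the other endothelial markers at most 4.5 CPM (Lyve1). Ttr itself was at 1110 ± 96.8 CPM in PBS (SD, n = 3), at 21.8% of that in siRNA and 20.3% in siRNA + scrambled REVERSIR, and between 94.8% and 114% in the other 3 groups. Mitochondrial ribosomal RNA took 24.3% and 24.1% of counts in PBS replicates 1 and 2, against 5.45% in PBS replicate 3 and 1.69% to 9.56% in treated libraries.

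Car3 was lower in all 5 treatments than in PBS, by between 0.36 and 0.69 on the log2 scale, and lowest with TTR REVERSIR alone. In PBS its level was 171, 191 and 138 CPM in replicates 1, 2 and 3, after scaling by the trimmed mean of M values (TMM). In siRNA it was 107, 140.0 and 141 CPM. Replicate 1 of siRNA thus lay well below the other pair, which stood just above PBS replicate 3.

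With scrambled REVERSIR Car3 was at 106, 117 and 107 CPM. With TTR REVERSIR it was at 100.4, 105 and 106 CPM, the lowest group. With siRNA + scrambled REVERSIR it was at 117, 119 and 113 CPM, and with siRNA + TTR REVERSIR at 123, 125 and 131 CPM. All 15 treated libraries lay below PBS replicates 1 and 2, and 13 of the 15 below PBS replicate 3. The groups with a REVERSIR did not overlap PBS, and siRNA alone did. How many of all genes separate in this way was not counted, here or for later statements of overlap. They describe the members only.

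**Figure D2:**
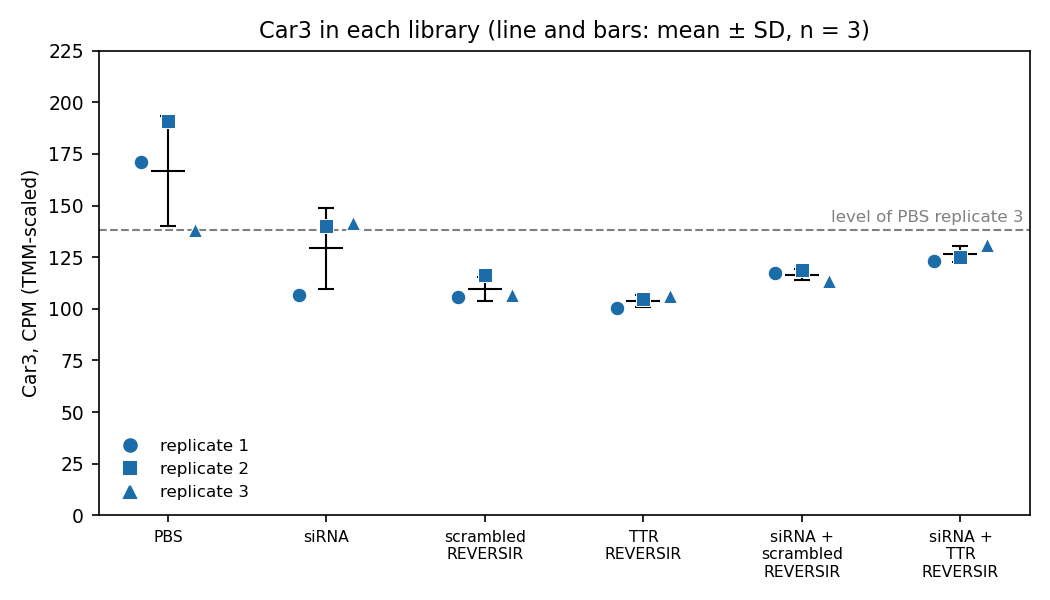
Car3 in each of the 18 libraries in TMM-scaled CPM, by group; symbols mark the replicate number, lines and bars the mean ± SD of 3 libraries, and the dashed line the level of PBS replicate 3. PBS replicates 1 and 2 stand above all 15 treated libraries, and siRNA replicates 2 and 3 are the only treated libraries above the dashed line.

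Group means of Car3 were 167 ± 26.7 CPM in PBS (SD, n = 3), 129 ± 19.6 in siRNA, 109.6 ± 5.98 with scrambled REVERSIR, 104 ± 3.00 with TTR REVERSIR, 116 ± 2.72 with siRNA + scrambled REVERSIR and 126.5 ± 3.88 with siRNA + TTR REVERSIR. The spread in PBS and siRNA was thus several times that of the other groups. Against PBS the log2 fold change of Car3 was largest in size with TTR REVERSIR, at −0.69 ± 0.099 (SE), followed by scrambled REVERSIR at −0.60 ± 0.10. It was −0.52 ± 0.093 with siRNA + scrambled REVERSIR, −0.40 ± 0.093 with siRNA + TTR REVERSIR and −0.36 ± 0.094 with siRNA. As a background to these values, edgeR's quasi-likelihood test with Benjamini-Hochberg adjustment called 0.699% of the 11153 genes with TTR REVERSIR against PBS, 0.421% with scrambled REVERSIR, 0.61% with siRNA + scrambled REVERSIR, 0.789% with siRNA + TTR REVERSIR and 2.62% with siRNA. These shares turned on single libraries. Where edgeR called 47 to 292 genes with all libraries, it called 0 or 1 without PBS replicate 1, 0 to 5 without PBS replicate 2 and 749 to 1365 without PBS replicate 3. Leaving out 1 treated library gave 0 to 375. The 5 comparisons share the same PBS libraries and so are not separate observations of a lower Car3. In the authors' deposited tables, the log2 fold changes of Car3 were −0.55, −0.49, −0.42, −0.33 and −0.30 in the same order. Those come from another estimate, by DESeq2 of unstated version, and their size is not directly comparable with the values above. In RNA of whole cultures, fewer cells that express a gene and less RNA per cell cannot be told apart.

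Against PBS replicate 3 alone, the PBS library without the high share of mitochondrial ribosomal RNA, the Car3 differences kept their sign and order but were smaller. The log2 fold change was −0.41 ± 0.12 (SE) with TTR REVERSIR, −0.33 ± 0.12 with scrambled REVERSIR, −0.24 ± 0.11 with siRNA + scrambled REVERSIR, −0.12 ± 0.11 with siRNA + TTR REVERSIR and −0.081 ± 0.11 with siRNA. A lone PBS library is assumed here to vary like the other groups. For siRNA the difference was smaller than its SE. In that fit edgeR called 1 gene of 11525 for siRNA, 1 for siRNA + scrambled REVERSIR and 0 for each of the other 3 treatments. With all mitochondrially encoded genes left out and all 3 PBS libraries kept, the Car3 values were −0.69, −0.61, −0.52, −0.40 and −0.36 in this order, as large as with those genes. As TMM scaling already allows for a few genes that take many counts, this fit could change Car3 little. Whether what sets PBS replicates 1 and 2 apart has a part in the Car3 values was not tested. The siRNA value also moved with single libraries, to −0.25 without siRNA replicate 1 or without PBS replicate 2 and to −0.48 without PBS replicate 3.

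**Figure D3:**
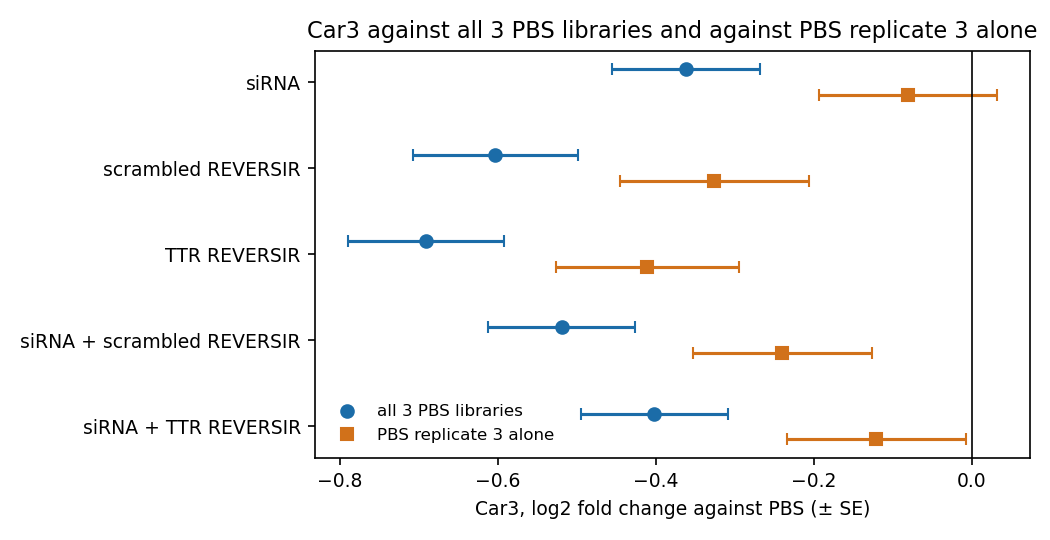
Log2 fold change of Car3 against PBS (± SE) for the 5 treatments, with all 3 PBS libraries as control (circles) or PBS replicate 3 alone (squares). Every value lies below 0, TTR REVERSIR is lowest under both controls, and with PBS replicate 3 alone the bar of siRNA crosses 0.

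The plot of both controls shows that the choice of PBS library moved all 5 values by a like amount, since it is the shared reference that changes. The order of the treatments rests on the treated libraries, and can be tested in comparisons without the PBS group.

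Between treated groups, Car3 was higher where the siRNA accompanied a REVERSIR, but no difference passed the adjusted test. With siRNA + TTR REVERSIR its level was higher than with TTR REVERSIR alone by 0.29 on the log2 scale (95% interval 0.09 to 0.49), and higher in every library of the first group than in any of the second. The adjusted p of edgeR's quasi-likelihood test was 1. Averaged over both REVERSIR sequences, the siRNA-containing groups were higher by 0.19 (interval 0.04 to 0.33), with an edgeR adjusted p of 0.85. With scrambled REVERSIR as the partner the difference was 0.08 ± 0.10 (SE), and the interaction of siRNA with the REVERSIR sequence was 0.20 ± 0.14 (edgeR adjusted p = 0.948).

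No difference in Car3 was called where a REVERSIR was added to the siRNA. The log2 difference from siRNA alone was −0.16 (95% interval −0.35 to 0.03) for siRNA + scrambled REVERSIR and −0.04 ± 0.092 (SE) for siRNA + TTR REVERSIR. The 2 sequences differed by −0.09 (interval −0.31 to 0.14) without siRNA and by 0.12 (interval −0.07 to 0.31) with it. In the latter pair the libraries did not overlap, 123 to 131 against 113 to 119 CPM. A test of any difference among the 5 treated groups gave an edgeR adjusted p of 0.829. With no filter on low counts it was 0.0198, the only alternative of those run in which a member passed a test without PBS. In that setting edgeR called 116 of 20065 genes, against 3 of 11153 with the filter. The cause was not tested.

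Across the 10 comparisons without PBS, 4 members gave 40 tests. By edgeR 0 of the 40 passed an adjusted p of 0.05, and 7 had an unadjusted p under 0.05. DESeq2, which gave an adjusted p for 33 of them, called 0, with 0.118 as the lowest and 5 at an unadjusted p under 0.05. Few genes of any kind were called. The share of all 11153 genes past an adjusted p of 0.05 was 0% for siRNA + scrambled REVERSIR against siRNA and for siRNA + TTR REVERSIR against TTR REVERSIR. It was 0.00897% for siRNA + TTR REVERSIR against siRNA and against siRNA + scrambled REVERSIR, for both averaged comparisons and for the interaction. It was 0.0179% for TTR REVERSIR against scrambled REVERSIR and for siRNA + scrambled REVERSIR against scrambled REVERSIR, and 0.0269% for any difference among the treated groups.

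At an unadjusted p of 0.05, the share of all genes ranged from 2.17% (siRNA + TTR REVERSIR against siRNA + scrambled REVERSIR) to 7.33% (TTR REVERSIR against scrambled REVERSIR). For the comparisons in which a member was below it, the share was 3.72% for siRNA + scrambled REVERSIR against siRNA, 5.98% for siRNA + TTR REVERSIR against siRNA and 6.22% for siRNA + scrambled REVERSIR against scrambled REVERSIR. It was 4.44% for siRNA + TTR REVERSIR against TTR REVERSIR, 5.59% for the siRNA average, 5.39% for the interaction and 5.16% for any difference. For the average of TTR against scrambled REVERSIR, where no member was below it, the share was 5.2%. These comparisons share libraries, so the 7 member tests are not independent of each other.

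**Figure D4:**
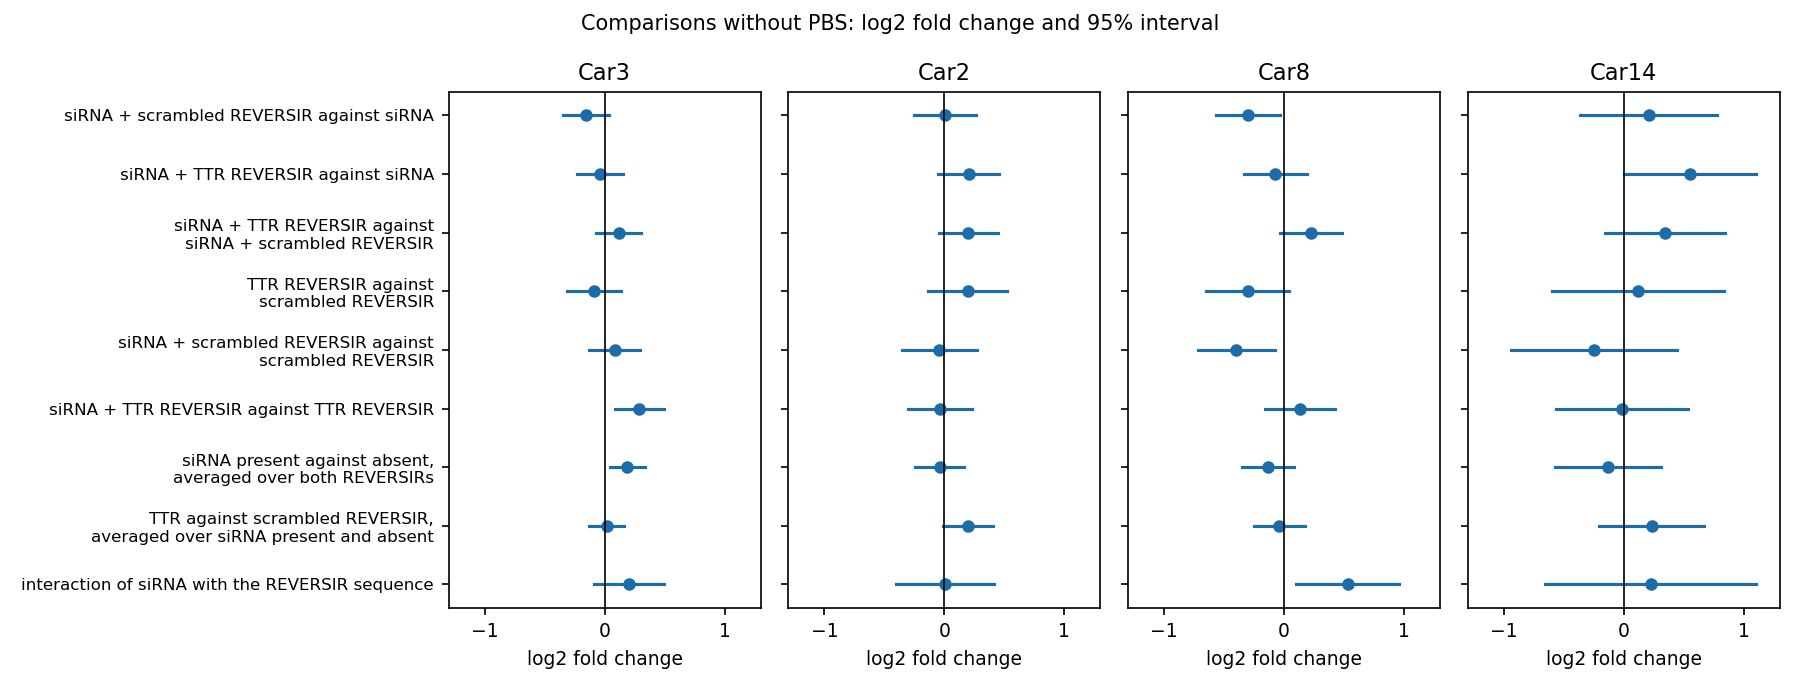
Log2 fold change with its 95% interval for Car3, Car2, Car8 and Car14 (panels) in the 9 comparisons without PBS that give a single difference. Intervals widen from Car3 to Car14 as counts fall; those that leave out 0 are above it for Car3 (siRNA + TTR REVERSIR against TTR REVERSIR, siRNA present against absent), Car8 (the interaction) and Car14 (siRNA + TTR REVERSIR against siRNA), and below it for Car8 (siRNA + scrambled REVERSIR against siRNA and against scrambled REVERSIR).

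Car2 followed another pattern from its neighbour. Its level was 28.0, 23.7 and 18.7 CPM in PBS replicates 1 to 3, and 23.5, 18.2 and 18.4 CPM in siRNA. It was 21.6, 18.8 and 21.4 CPM with scrambled REVERSIR, and 21.7, 26.4 and 23.7 CPM with TTR REVERSIR. With siRNA + scrambled REVERSIR it was 21.2, 19.3 and 18.8 CPM, and with siRNA + TTR REVERSIR 23.5, 22.7 and 22.1 CPM. Every treated group overlapped PBS, and the PBS libraries were themselves the most spread. The log2 fold change against PBS ran from −0.25 ± 0.13 (SE, siRNA) to −0.02 ± 0.14 (TTR REVERSIR), and against PBS replicate 3 alone it was above 0 in all 5 treatments, from 0.09 to 0.33. The direction of Car2 against PBS thus turned with the PBS libraries used.

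Without PBS, Car2 was higher with the TTR than with the scrambled REVERSIR in all 6 libraries of each. The margin was narrow, with 21.75 against 21.57 CPM in the nearest libraries. How many of all genes separate likewise was not counted. The averaged log2 difference was 0.20 (95% interval −0.01 to 0.40) and did not pass the test (edgeR adjusted p = 0.944). The siRNA average for Car2 was −0.04 ± 0.099 (SE).

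As both genes are counted in the same library, the ratio of Car3 to Car2 counts does not depend on how libraries are scaled. It was 6.11, 8.08 and 7.41 in PBS, 4.54, 7.69 and 7.7 in siRNA, and 4.89, 6.2 and 5 with scrambled REVERSIR. It was lowest with TTR REVERSIR, at 4.36 ± 0.345 (SD, n = 3), and was 5.91 ± 0.332 with siRNA + scrambled REVERSIR and 5.56 ± 0.335 with siRNA + TTR REVERSIR. The libraries with TTR REVERSIR, with or without siRNA, all lay below the 3 PBS libraries, while those of the other 3 treatments overlapped them. A ratio shows unequal change and not which gene differed. Over the 18 libraries the log2 CPM of Car3 and Car2 had a Pearson correlation of 0.0878, and over the 15 treated libraries −0.524, as a description of libraries that share their treatment groups.

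Car8, the form without catalytic activity, was at 17.1, 13.1 and 17.9 CPM in PBS and 16.8, 20.3 and 18.1 CPM in siRNA. With scrambled REVERSIR it was at 20.1, 19.5 and 19.7 CPM, the narrowest group and above all PBS libraries. With TTR REVERSIR it was at 14.2, 18.6 and 16.9 CPM, with siRNA + scrambled REVERSIR at 14.6, 14.2 and 16.5 CPM, and with siRNA + TTR REVERSIR at 17.8, 14.9 and 19.6 CPM. The groups siRNA + scrambled REVERSIR and scrambled REVERSIR alone did not overlap, and siRNA + scrambled REVERSIR also lay below siRNA alone.

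The log2 difference of Car8 was −0.40 ± 0.15 (SE) for siRNA + scrambled REVERSIR against scrambled REVERSIR (edgeR adjusted p = 0.741). It was −0.30 ± 0.13 against siRNA alone (edgeR adjusted p = 1). With TTR REVERSIR as the partner, the siRNA difference had the other sign, 0.13 ± 0.14, and the interaction was 0.53 (95% interval 0.10 to 0.96, edgeR adjusted p = 0.889). None of these passed the adjusted test. Against PBS the Car8 values ran from −0.09 ± 0.14 (siRNA + scrambled REVERSIR) to 0.30 ± 0.16 (scrambled REVERSIR).

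Car14, the membrane form, was low. Its counts in the 3 libraries of a group summed to 45 in PBS, 52 in siRNA, 28 with scrambled REVERSIR, 55 with TTR REVERSIR, 81 with siRNA + scrambled REVERSIR and 98 with siRNA + TTR REVERSIR. Its level was 3.33 ± 0.559 CPM in PBS (SD, n = 3) and 2.96 ± 0.933 CPM in siRNA. With scrambled REVERSIR it was at 3.8, 2.1 and 6.7 CPM, the widest group, on 10, 6 and 12 counts. With siRNA + TTR REVERSIR it was at 4.2, 3.8 and 4.4 CPM. The log2 difference of siRNA + TTR REVERSIR from siRNA was 0.55 ± 0.27 (SE, edgeR adjusted p = 0.807), and these groups overlapped. Without siRNA replicate 3, the lowest Car14 library, it was 0.26 (edgeR adjusted p = 0.978). Car14 lies on the minus strand of chromosome 3 (ENSMUSG00000038526, chr3:95701691-95708614), and 445 of its 2543 exon bases (17.5%) are shared with exons of Aph1a. As no source states the strand of counting, part of its reads may belong to Aph1a.

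Car5a, the mitochondrial liver form, was barely detected. It had 1, 4 and 0 counts in PBS, 2, 7 and 7 in siRNA, and 2, 1 and 1 with scrambled REVERSIR. It had 5, 0 and 0 with TTR REVERSIR, 8, 2 and 2 with siRNA + scrambled REVERSIR and 9, 3 and 3 with siRNA + TTR REVERSIR. Its reads therefore allow no comparison of groups. Of its 1339 exon bases 314 (23.5%) are shared with BC048644, so that even these counts are uncertain. Its paralog Car5b, also mitochondrial, was at 0.216 ± 0.094 RPKM (SD, n = 18).

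**Figure D5:**
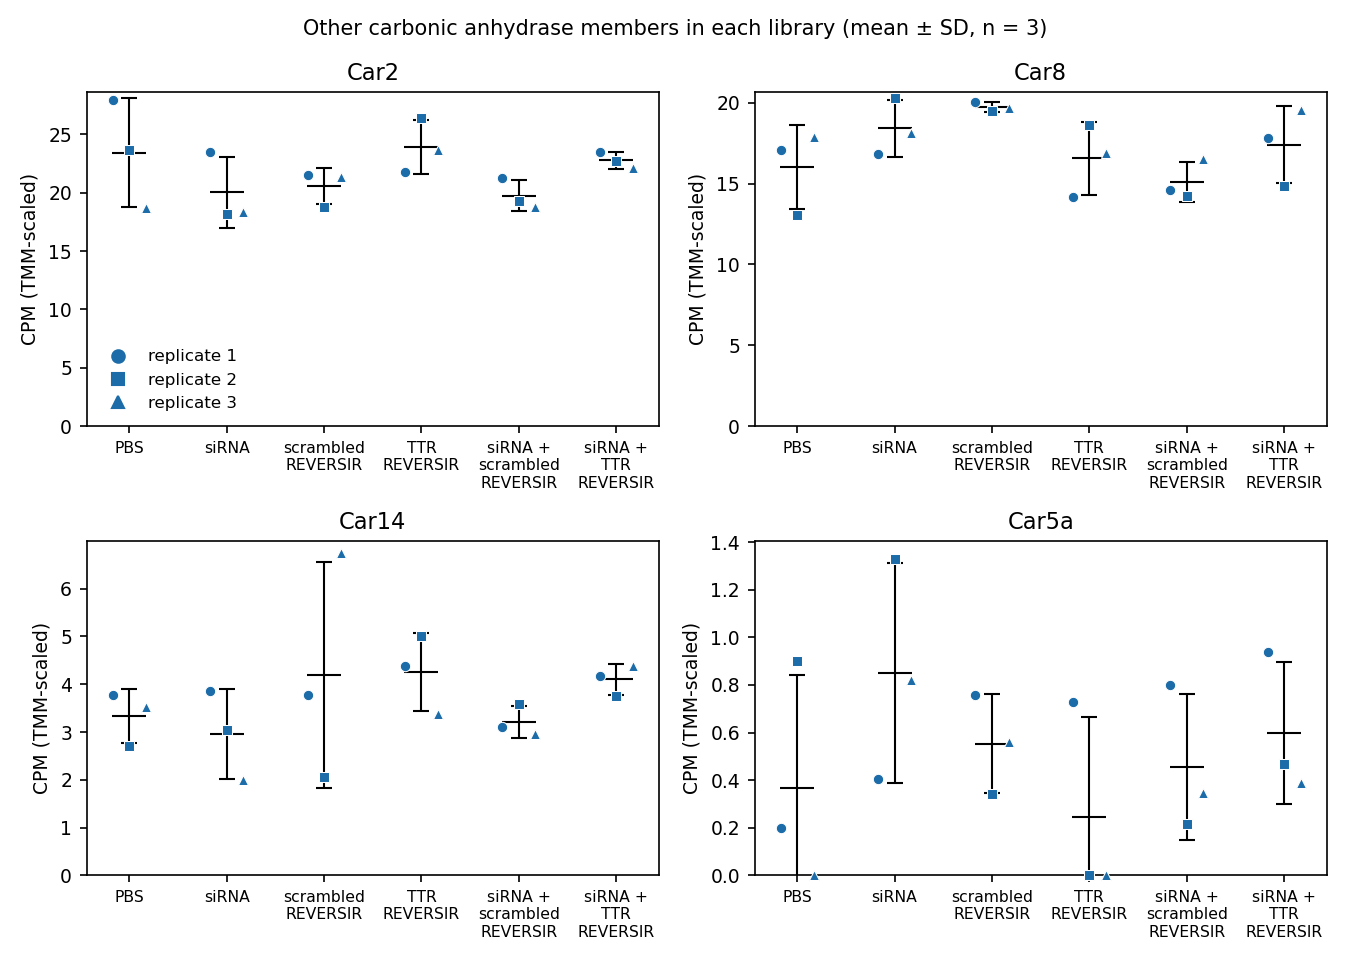
Car2, Car8, Car14 and Car5a in each library in TMM-scaled CPM (each panel has its own axis from 0); symbols mark the replicate number, lines and bars the mean ± SD of 3 libraries. Treated groups of Car2 and Car14 overlap PBS, Car8 with scrambled REVERSIR lies above PBS, and Car5a stays below 1.4 CPM.

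The plot of the other members shows no gene with the full pattern of Car3, in which PBS replicates 1 and 2 stand above every treated library. Car2 came near it, with all 15 treated libraries below PBS replicate 1 and 13 below PBS replicate 2. Only 2 of its treated libraries lay below PBS replicate 3.

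Car13, which shares the gene group of Car3 on chromosome 3, was at 8.7, 6.8 and 5.8 CPM in PBS on 44, 30 and 23 counts. Its log2 fold change against PBS was below 0 in all 5 treatments, from −0.71 ± 0.27 (SE, siRNA + scrambled REVERSIR) to −0.20 ± 0.32 (scrambled REVERSIR). Only siRNA + scrambled REVERSIR did not overlap PBS.

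The enzymes and carriers that use the products of carbonic anhydrases were measured beside them. All 9 bicarbonate-fixing enzymes and all 10 genes of the urea cycle and ammonia handling passed the filter, and were tested in 14 comparisons, 5 with PBS and 9 without it. Over all 11153 genes, an unadjusted edgeR p under 0.05 was found in 17.3% of tests with PBS and 5.12% of those without. At an adjusted p of 0.05, edgeR called 0 to 292 of all genes per comparison and DESeq2 0 to 424, most in siRNA against PBS. By edgeR 0 of 126 tests of the bicarbonate-fixing list passed, with an unadjusted p under 0.05 in 1 of 45 with PBS and 10 of 81 without, and DESeq2 called 0. Of 140 tests of the urea cycle list 0 passed, with an unadjusted p under 0.05 in 10 of 50 with PBS and 13 of 90 without, and DESeq2 called 1, of the liver glutaminase Gls2. Cps1, the mitochondrial carbamoyl phosphate synthetase of the urea cycle, was at 95.6 ± 8.67 RPKM (SD, n = 18), and Pcx, pyruvate carboxylase, at 42.3 ± 2.95 RPKM. Their log2 fold changes against PBS lay between −0.07 and 0.16 for Cps1 and between −0.05 and 0.13 for Pcx. Arg1, the arginase that releases urea, was at 118 ± 9.47 RPKM, and Glud1, glutamate dehydrogenase, at 184 ± 8.98 RPKM. The median log2 fold change against PBS of the bicarbonate-fixing list lay between −0.10 and 0.07, beside medians of all genes between −0.01 and 0.00.

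Of 24 bicarbonate and proton transporters 13 passed the filter. Aqp8, a water channel of the hepatocyte, and Slc26a1, an anion exchanger that carries sulfate, oxalate and bicarbonate, were higher in siRNA than in PBS and passed the test. These were the 2 of 182 tests of the list that edgeR called, both in a comparison where it called 2.62% of all 11153 genes. An unadjusted edgeR p under 0.05 was found in 18 of 65 tests with PBS and 6 of 117 without. DESeq2 called 6, of Slc26a1, Aqp8, Aqp9 and Slc4a4. The log2 fold change was 0.40 ± 0.096 (SE) for Aqp8 (edgeR, adjusted p = 0.0285) and 0.26 ± 0.071 for Slc26a1 (adjusted p = 0.0468). Both calls were lost against PBS replicate 3 alone (0.21 and 0.26, edgeR adjusted p = 0.961 for each), and when PBS replicate 1, PBS replicate 2 or any single siRNA library was left out, with an adjusted p of up to 0.253 for Aqp8 and 0.244 for Slc26a1. Aqp8 was also above PBS, without a call, with scrambled REVERSIR (0.36), TTR REVERSIR (0.37), siRNA + scrambled REVERSIR (0.265) and siRNA + TTR REVERSIR (0.28). Its higher level was thus not particular to siRNA. Averaged over both REVERSIRs, Aqp8 with siRNA differed from that without by −0.09 ± 0.068 (SE, edgeR adjusted p = 0.927). Slc16a1, a carrier of lactate with a proton, was at 45.9 ± 2.69 RPKM with log2 fold changes against PBS between −0.01 and 0.16.

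All 10 genes of zinc handling and all 3 inositol trisphosphate receptors passed the filter. By edgeR 0 of 140 tests of the zinc list passed, with an unadjusted p under 0.05 in 5 of 50 with PBS and 10 of 90 without, and DESeq2 called 1, of Mt2. Of 42 tests of the receptors 0 passed by either tool, and 0 had an unadjusted edgeR p under 0.05. The metallothioneins Mt1 and Mt2, which bind zinc, were at 1199 ± 166 and 1141 ± 132 RPKM. Mt2 was lower than PBS by the most with scrambled REVERSIR, at −0.38 ± 0.098 (SE), which did not pass (edgeR adjusted p = 0.0778). Itpr1, the receptor that Car8 binds, was at 15 ± 0.765 RPKM with log2 fold changes against PBS between 0.01 and 0.08.

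Genes whose log2 CPM was most like that of a member were sought among 10718 genes. For Car3 over the 18 libraries, Pearson's r was 0.906 for Orm2, an acute-phase plasma protein whose reads may be shared with its close paralogs. It was 0.872 for the forkhead factor Foxj3, 0.868 for Clint1, which binds clathrin, 0.862 for the tyrosine phosphatase Ptpn2 and 0.859 for Cck, which encodes cholecystokinin. All 5 were higher in PBS than in treated libraries on average, Orm2 at 409 against 329 CPM and Cck at 28.3 against 19.0 CPM. Over the 15 treated libraries alone r fell to 0.695, 0.685, 0.539, 0.741 and 0.517. For Car2 the most alike genes were Skp1a (r = 0.83) and AI661453 (r = 0.81), for Car8 Pdgfb (0.792) and Bin3 (0.768), and for Car14 Eya3 (0.772) and Polr2m (0.752). These values pick the highest of many genes and are a description. The libraries share treatment groups, depth and scaling.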

How the data were processed

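The data were raw read counts for 37991 genes in 18 libraries. STAR, the build NCBIM37 and DESeq2 are named, per the submitters' processing notes, without versions. Neither the counting tool nor its strand is stated in the labels. The deposited counts were whole numbers and were not pooled. The authors' deposited tables against PBS hold a Wald score, a p-value, a mean signal after size factors and a log2 fold change, and only the log2 fold change of Car3 was taken from them. Titles gave the groups and replicate numbers, also for siRNA + scrambled REVERSIR replicate 2, whose file is named for a different replicate.

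Genes were kept by filterByExpr of edgeR 4.0.16 in R 4.3.3, which left 11153. All 18 libraries were fitted with the group as the only term (TMM scaling, quasi-likelihood, 12 residual degrees of freedom), and p-values were adjusted by the Benjamini-Hochberg method over all 11153. The code was tested on simulated data. RPKM used the summed exon length of the build's annotation, and log2 CPM a prior count of 2. Alternatives were DESeq2 1.42.0, its size factors, library totals alone, mitochondrial genes left out, no filter, only the groups compared, a replicate block, each library left out, and PBS replicate 3 alone. Those for Aqp8 and Slc26a1 were chosen after seeing the data. Members and lists were chosen with earlier results of these data known. Named genes were the members, their family, the 2 highest members of each list by RPKM, listed genes past an adjusted p of 0.05, and the genes most alike each member (mean log2 CPM of at least 1). Slc26a1 and Aqp8 were named against PBS after their values were seen. A marker gene of the erythroid list is not reported here.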

Additional observations from a re-analysis of the deposited data

How the results depend on the processing

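Of 70 alternative values of Car3 against PBS all lay below 0, and 60 moved by less than the spread between libraries. The other 10 came from PBS replicate 3 as the only control and from library totals alone. In the order siRNA, scrambled REVERSIR, TTR REVERSIR, siRNA + scrambled REVERSIR and siRNA + TTR REVERSIR, the log2 fold changes of Car3 were −0.081, −0.33, −0.41, −0.24 and −0.12 with PBS replicate 3 alone. With library totals alone they were −0.024, −0.30, −0.36, −0.19 and −0.058, in a scaling that moved the median of all genes to between 0.29 and 0.33. Relative to that median Car3 was at −0.36, −0.59, −0.68, −0.51 and −0.39. For the other members 191 of 210 values against PBS moved by less than the spread, and the 19 that did not came from the same 2 settings. Without PBS, 156 of 157 Car3 values and all 468 of the other members were counted as keeping their side of the threshold. That count includes DESeq2 values without an adjusted p, for which the side is not known. The exception was the test of any difference among the treated groups with no low-count filter. There Car3 had an edgeR adjusted p of 0.0198, against 0.829 with the filter, and 116 of 20065 genes were called, against 3 of 11153.

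With the replicate block, Car3 was at −0.36, −0.60, −0.68, −0.52 and −0.40 against PBS, and no member's call changed. The replicate numbers did not pair the libraries: deviations from group means of same-numbered libraries had a median correlation of −0.013, with 6 of 45 pairs above 0.1, and 7 of 18 libraries were most like one of their own number. DESeq2 called 424, 186, 162, 213 and 230 genes against PBS, in the order above, where edgeR called 292, 47, 78, 68 and 88, library totals alone gave 1580 to 4089, no low-count filter 424 to 677, only the groups compared 0 to 7, and PBS replicate 3 alone 0 or 1. The replicate block gave 248, 52, 55, 66 and 47. Counts of Car14 and Car5a limit their comparison most.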
